A study of Mus musculus with 6 samples.

Results

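The anterior and central genes of the HoxA and HoxD clusters (Hoxa2, Hoxa3, Hoxa4, Hoxa5, Hoxa6, Hoxa7, Hoxd3, Hoxd4 and Hoxd8) were described in RNA-seq data from primary mouse embryonic fibroblasts (MEFs). These 9 genes were chosen by name from 25043 genes listed, as HoxA and HoxD genes of paralog groups 2 to 8. The most highly counted transcript of a gene gave its value. The series compared 3 libraries from wild type (WT) MEFs with 3 from Anp32e null MEFs, which lack the histone chaperone ANP32E, a protein known to remove the histone variant H2A.Z from chromatin. Cells of both genotypes were grown in DMEM with fetal bovine serum and antibiotics and used at low passage, and total RNA was made into stranded libraries. Nothing in the labels says that the libraries of a genotype came from separate embryos or cultures. Apart from the authors' own comparison, which is not used here, the table analysed gives 1 value per transcript, the mean normalized count over all 6 libraries. The level of each gene was therefore described over the libraries of both genotypes together, and the difference between WT and Anp32e null MEFs was not analysed here.

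Hox genes encode homeodomain transcription factors that give cells their position along the body axis. Mammals carry them in 4 clusters, in which the order of the genes on the chromosome follows the order of their anterior limits of expression in the embryo. Genes at the anterior end of a cluster act in the hindbrain and neck, central genes in the trunk, and posterior genes in the limbs and tail. Fibroblasts keep a pattern of Hox expression that depends on the part of the body they came from. In bulk RNA, a low level in every cell and a higher level in a few cells cannot be told apart.

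The 9 genes lie on 2 chromosomes. On GRCm38.p6, the 6 HoxA genes lie on the minus strand of chromosome 6, from the start of Hoxa2 at 52162417 to the end of Hoxa7 at 52218573. The 3 HoxD genes lie on the plus strand of chromosome 2, from the start of Hoxd8 at 74704615 to the end of Hoxd3 at 74748271. Hoxa3 spans 44009 bp and holds Hoxa4, Hoxa5 and Hoxa6 within its span, and Hoxd3 spans 36279 bp and holds Hoxd4. Because of these nested spans, a transcript that starts at the far promoter of Hoxa3 or Hoxd3 crosses its neighbours.

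**Figure D1:**
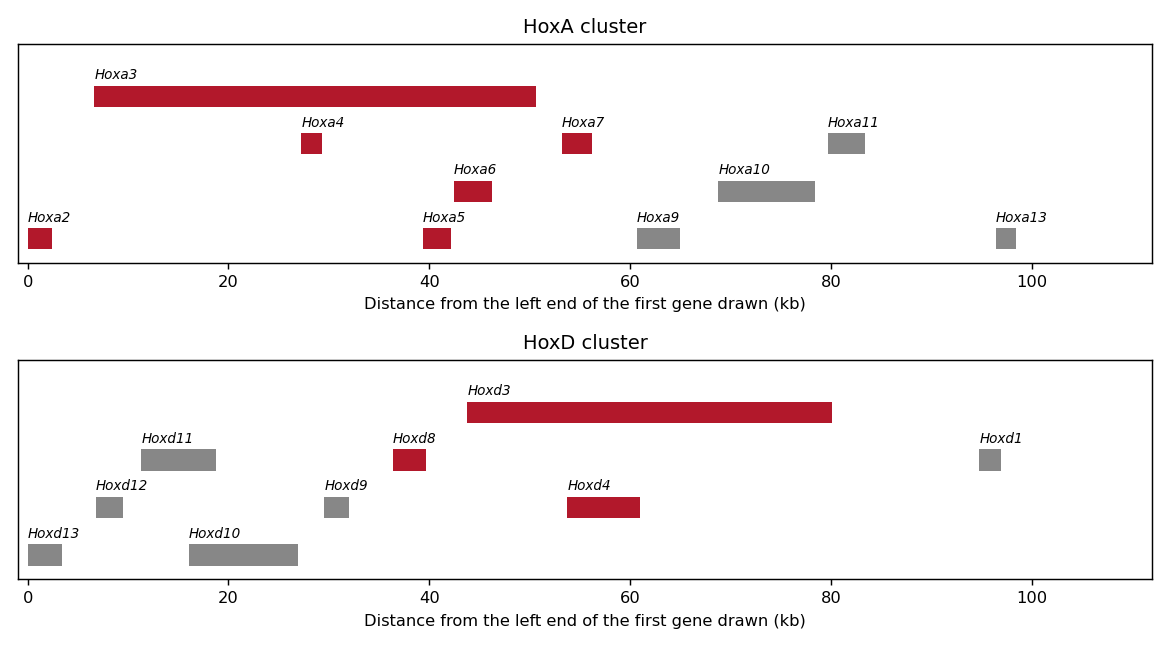
Spans of the HoxA (top) and HoxD (bottom) genes, with the distance in kb from the left end of the first gene drawn on the x axis. Red bars are the 9 anterior and central genes, grey bars are other genes of each cluster, and the height of a bar has no meaning. Hoxa4, Hoxa5 and Hoxa6 sit inside the span of Hoxa3, and Hoxd4 sits inside that of Hoxd3.

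Promoter sequences from RefSeq (GRCm38.p6) were found for 8 of the 9 genes, Hoxa4 being the gene with no entry. The 250 bases before the annotated start are shown for the 3 HoxD genes, which share a motif, and for Hoxa2, which holds the most CCAAT boxes. Capitals mark matches on either strand to AGGTCA (a core sequence bound by many nuclear receptors, retinoic acid receptors included), CCAAT (the box bound by NF-Y), TATAAA (the TATA box) or GGGCGG (the GC box bound by Sp1). The windows are chr2:74711743-74711992, chr2:74721728-74721977 and chr2:74704365-74704614 on the plus strand and chr6:52164832-52165081 on the minus strand.
Hoxd3: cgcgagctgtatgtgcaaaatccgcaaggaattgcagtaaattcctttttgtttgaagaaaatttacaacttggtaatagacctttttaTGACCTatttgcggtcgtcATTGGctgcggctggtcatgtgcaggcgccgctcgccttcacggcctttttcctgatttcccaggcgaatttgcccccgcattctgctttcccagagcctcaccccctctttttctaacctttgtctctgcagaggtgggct
Hoxd4: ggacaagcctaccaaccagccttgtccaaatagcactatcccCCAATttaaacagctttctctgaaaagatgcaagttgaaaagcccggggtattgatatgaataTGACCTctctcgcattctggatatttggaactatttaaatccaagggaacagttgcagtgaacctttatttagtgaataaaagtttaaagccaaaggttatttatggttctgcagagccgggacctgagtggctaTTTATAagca
Hoxd8: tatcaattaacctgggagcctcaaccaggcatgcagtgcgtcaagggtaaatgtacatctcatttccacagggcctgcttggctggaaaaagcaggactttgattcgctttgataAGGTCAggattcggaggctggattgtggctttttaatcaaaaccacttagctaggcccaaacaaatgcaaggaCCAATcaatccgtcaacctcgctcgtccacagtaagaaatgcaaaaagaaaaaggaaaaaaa
Hoxa2: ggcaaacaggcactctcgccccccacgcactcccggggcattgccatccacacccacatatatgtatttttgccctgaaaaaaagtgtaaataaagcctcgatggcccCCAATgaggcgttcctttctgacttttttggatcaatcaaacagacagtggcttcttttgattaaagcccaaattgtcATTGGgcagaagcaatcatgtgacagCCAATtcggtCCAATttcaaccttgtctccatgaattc

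AGGTCA occurred once in each of the 3 HoxD windows and in none of the 5 HoxA windows, against 14% of 32851 promoters of the same length. Its first base lay 161 bases before the start of Hoxd3, 145 before that of Hoxd4 and 135 before that of Hoxd8, on the minus strand in the first 2 genes and on the plus strand in Hoxd8. CCAAT occurred 4 times in Hoxa2, once each in Hoxa5, Hoxa6, Hoxd3, Hoxd4 and Hoxd8, and not in Hoxa3 or Hoxa7, against 33.8% of all promoters. GGGCGG occurred only in Hoxa6, with 5 matches of which some share bases, against 32.7% of all promoters. TATAAA occurred only in Hoxd4, on the minus strand with its first base 10 bases before the start, against 12.4%. The GC content ran from 40.4% in Hoxd4, 44.4% in Hoxd8, 46.4% in Hoxa2 and 49.2% in Hoxd3 to 54.8% in Hoxa7, 63.6% in Hoxa5, 64.8% in Hoxa3 and 65.2% in Hoxa6, and the median of all promoters was 52.4%. All 3 HoxD windows were thus below the median promoter in GC content, and 4 of the 5 HoxA windows were above it. The Hoxd8 window ends just before the RefSeq start of the gene at 74704615, whereas the GENCODE transcript used for its level starts at 74704905. The Hoxa7 window runs from 52218574 to 52218823, whereas the GENCODE transcript used for its level starts at 52217505 on the minus strand. The 2 are thus apart, and the Hoxa7 window may not be the promoter of that transcript. A match describes the letters of the window and not a bound site.

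All 9 genes had reads, with mean normalized counts over the 6 libraries from 27.0 for Hoxd3 to 740.6 for Hoxd8. Between genes, levels were compared as the mean normalized count per kb of exon. On this scale the genes ran from 9.10 for Hoxd3 to 281 for Hoxd8, a ratio of 30.9, with a median of 32.1. The median of the 17737 genes with reads and a known length was 128.7 per kb. Hoxa7 and Hoxd8 lay above it and the other 7 genes below it. Where only the 13018 genes with a mean of at least 10 were ranked, all 9 lay below the median gene, with Hoxd8 at percentile 46, Hoxa7 at 32.5 and Hoxd3 the lowest at 6.12. Together the 9 genes held 9.57% of the summed mean counts of the 20 HoxA and HoxD genes, and Hoxd8 alone held 55.3% of the sum of the 9.

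The anterior genes of paralog groups 2 to 4 were the lowest. Hoxa2, which patterns the second branchial arch and the hindbrain, had a mean normalized count of 28.2 and a level of 15.9 per kb, higher than 32.5% of the genes ranked. Hoxa3, which acts in the pharyngeal organs, thymus and parathyroid included, had a mean of 28.7 and a level of 11.1 per kb, at percentile 30. Its paralog Hoxd3, which acts in the first cervical vertebrae, had a mean of 27.0 and a level of 9.10 per kb, at percentile 28.7. These 3 genes had nearly the same mean count, and their order per kb follows the length of their exons, which is 1775 bp for Hoxa2, 2591 bp for Hoxa3 and 2968 bp for Hoxd3.

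The group 4 paralogs act in the cervical vertebrae. Hoxd4 had a mean normalized count of 30.2 and a level of 11.8 per kb, at percentile 30.4. Hoxa4 had a mean of 51.1 and a level of 32.1 per kb, at percentile 37.7. Per kb, Hoxd4 was thus close to Hoxa3 and Hoxd3, and Hoxa4 lay above all of them.

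The central genes were higher. Hoxa5, which is needed for the lung and the trachea, had a mean normalized count of 76.1 and a level of 40.6 per kb, at percentile 39.4. Hoxa6, a gene of the trunk, had a mean of 91.4 and a level of 105 per kb, at percentile 47.9. Hoxa7, its neighbour, had a mean of 266 and a level of 132 per kb, at percentile 50.4. The step from Hoxa5 to Hoxa6 is larger per kb than in mean counts because the Hoxa6 transcript used has only 874 bp of exon against 1877 bp for Hoxa5. The left end of this GENCODE transcript is at 52206288, whereas the RefSeq span of Hoxa6 begins at 52204858. A longer exon length for Hoxa6 would make the step per kb smaller, and this was not tested. By coding length, Hoxa5 was at 94.0 per kb and Hoxa6 at 131.

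Hoxd8, a central gene that lies between Hoxd9 and Hoxd3 on the chromosome, was the highest of the 9, with a mean normalized count of 740.6 and a level of 281 per kb, at percentile 60.4. It was the one gene of the 9 with more than 1 listed transcript. The transcripts of 2634 bp and 1758 bp had the same mean of 740.6, and the transcript of 557 bp had a mean of 713. Reads in shared exons were counted for each transcript, so these values do not tell the transcripts apart. Hoxd8 would lie at 421 per kb by the transcript of 1758 bp and at 1280 per kb by that of 557 bp, and it is the highest of the 9 by each.

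**Figure D2:**
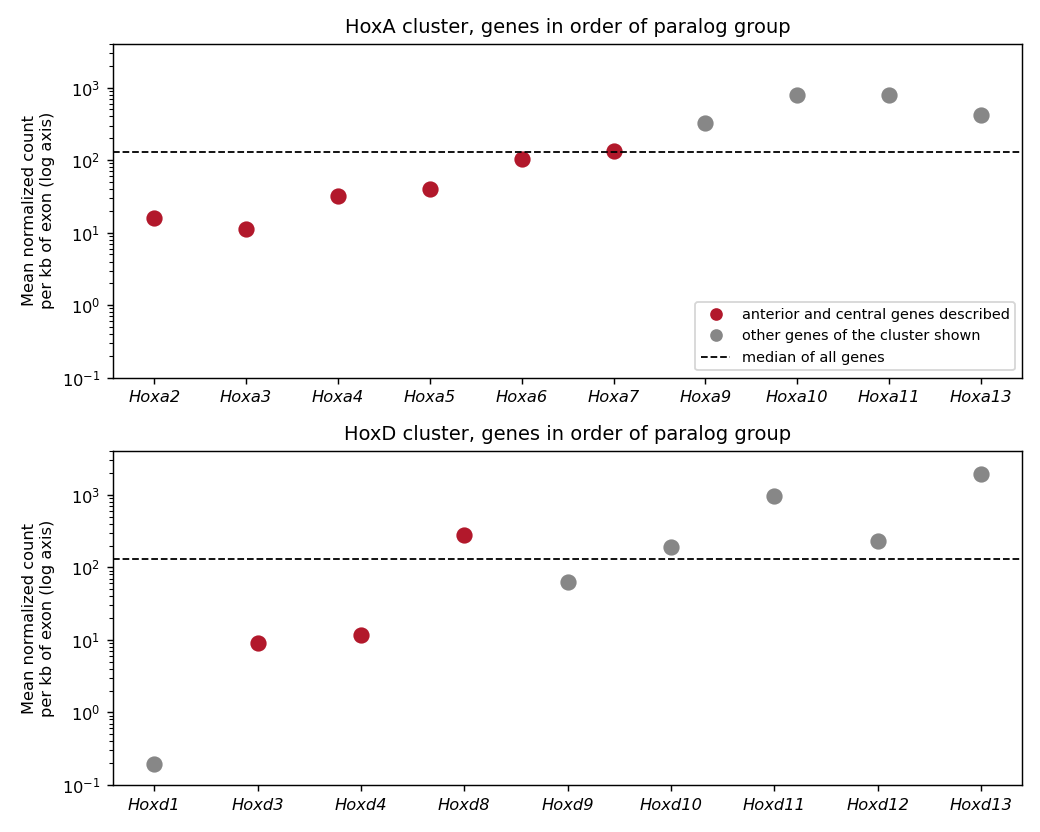
Mean normalized count over the 6 libraries per kb of exon, on a log axis, for the HoxA genes (top) and the HoxD genes (bottom) in order of paralog group. Red points are the 9 anterior and central genes, grey points are other genes of the cluster, and the dashed line is the median of all genes at 128.7. The HoxA genes rise step by step from Hoxa3 at 11.1 to Hoxa10 at 799, and Hoxd8 at 281 lies above Hoxd9 at 62.1. The size of the step from Hoxa5 to Hoxa6 rests on the short exon length used for Hoxa6.

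Along the HoxA cluster, the level per kb rose at each step from Hoxa3 to Hoxa10, through Hoxa4, Hoxa5, Hoxa6, Hoxa7 and Hoxa9, the last at 325. This is the order of means over the 6 libraries, and it does not hold in every library. The size of the step from Hoxa5 to Hoxa6 rests on the short exon length used for Hoxa6. Hoxa10 and Hoxa11, posterior genes of the limb and the genital tract, were nearly equal at 799 and 797, and Hoxa13 lay at 420. In the HoxD cluster, Hoxd1 was nearly silent with 0.191 per kb. Hoxd3 and Hoxd4 followed at 9.10 and 11.8, and Hoxd8 stood above Hoxd9 at 62.1, Hoxd10 at 192 and Hoxd12 at 233. Hoxd11 at 972 and Hoxd13 at 1945, both genes of the distal limb, were the highest of the cluster. Of the 11 other HoxA and HoxD genes, 6 lay above every one of the 9, and their median was 325 per kb. The same mean counts without division by length placed 6 of the 9 genes at the same rank.

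The mean over the libraries also fixes the reads behind it where it is low. A mean normalized count is a sum of whole reads, each weighted by the size factor of its library, and the means are printed with enough digits that only 1 set of whole reads in 6 libraries gives each of the 3623 distinct means under 10. The 6 libraries found in this way had size factors from 0.909 to 1.13, and their total reads are not known. They carry no label: which of them are WT and which are Anp32e null is not given, so they were numbered by falling size factor, put in no group and compared by no test. Reads were solved for the 7 genes with means up to 91.4. The means of Hoxa7 and Hoxd8 were too high.

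Hoxa2 had 30, 30, 31, 20, 30 and 29 reads in libraries 1 to 6, which are normalized counts of 26.5, 28.5, 30.2, 20.3, 32.1 and 31.9. Its highest value was 1.58 times its lowest, and the 95% Poisson intervals of the lowest (12.4 to 31.3) and the highest (21.6 to 45.8) overlapped. Such intervals cover counting error only. Here and below they are given for the lowest and the highest of the 6 libraries, picked by value. The 6 libraries mix both genotypes, so the intervals and ratios do not measure the spread between replicates. Hoxa3 had 35, 42, 30, 19, 25 and 24 reads, or normalized counts of 31.0, 39.9, 29.2, 19.2, 26.7 and 26.4. Library 4 was the lowest for both genes, and the Hoxa3 values differed by a factor of at most 2.08.

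Hoxa5 had 74, 72, 93, 68, 83 and 68 reads, or normalized counts of 65.4, 68.5, 90.5, 68.9, 88.7 and 74.8. This was the narrowest range of the 7 genes, with a ratio of 1.38. Hoxa6 had 123, 113, 106, 59, 73 and 83 reads, or normalized counts of 109, 107, 103, 59.8, 78.0 and 91.3. Its ratio was 1.82, with library 4 the lowest. With a tolerance 10 times wider in matching the printed mean, Hoxa6 had 3 solutions. Its reads are thus less certain than those of the other genes.

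Hoxa4 had 38, 24, 71, 18, 61 and 89 reads in libraries 1 to 6, or normalized counts of 33.6, 22.8, 69.1, 18.2, 65.2 and 97.9. Its highest value was 5.37 times its lowest, and the Poisson intervals of library 4 (10.8 to 28.8) and library 6 (78.6 to 120) did not overlap. Its neighbours inside the span of Hoxa3, Hoxa5 and Hoxa6, had ratios under 2 in the same libraries. In library 6, Hoxa4 at 97.9 was above Hoxa5 at 74.8, though its mean over the libraries was lower.

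Hoxd3 and Hoxd4 varied most. Hoxd3 had 8, 5, 47, 9, 49 and 39 reads, or normalized counts of 7.07, 4.76, 45.8, 9.12, 52.4 and 42.9, a ratio of 11.0. Hoxd4 had 18, 5, 56, 16, 45 and 38 reads, or normalized counts of 15.9, 4.76, 54.5, 16.2, 48.1 and 41.8, a ratio of 11.5. In both genes the Poisson interval of library 2 (1.54 to 11.1) lay below that of the highest library, which began at 38.7 for Hoxd3 and 41.2 for Hoxd4. Hoxa2 and Hoxa3, with nearly the same mean counts, did not show such a range.

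**Figure D3:**
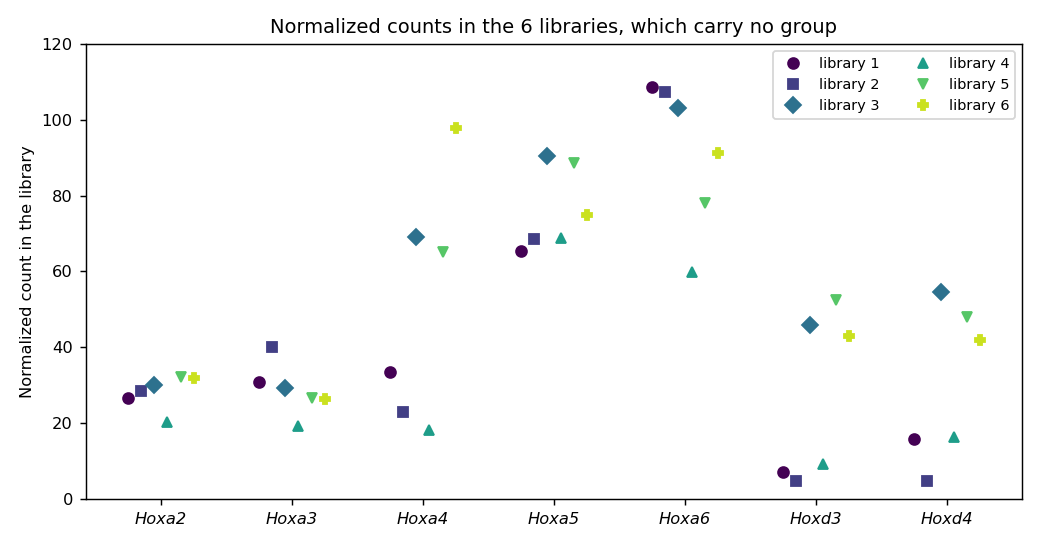
Normalized count in each of 6 libraries, which carry no genotype label and are numbered by falling size factor, for the 7 genes whose reads could be solved. Each point is 1 library, with the same symbol in every gene. Hoxa2, Hoxa3, Hoxa5 and Hoxa6 differ by a factor of at most 2.08 between libraries, Hoxa4 by 5.37, Hoxd3 by 11.0 and Hoxd4 by 11.5.

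For comparison, reads were solved for all 786 genes with a mean normalized count of 20 to 40. The median ratio of the highest to the lowest library was 2.85, with quartiles of 2.15 and 4.34. A ratio as large as that of Hoxd3 was found in 9.29% of these genes and one as large as that of Hoxd4 in 8.65%, while 95.5% had a ratio at least as large as that of Hoxa2 and 78.6% one as large as that of Hoxa3. Hoxa2 was thus among the steadiest genes of its level, and Hoxd3 and Hoxd4 were in the upper tail. Leaving out any 1 library moved the mean of Hoxd3 between 21.9 and 31.4, that of Hoxd4 between 25.4 and 35.3 and that of Hoxa4 between 41.8 and 57.7.

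**Figure D4:**
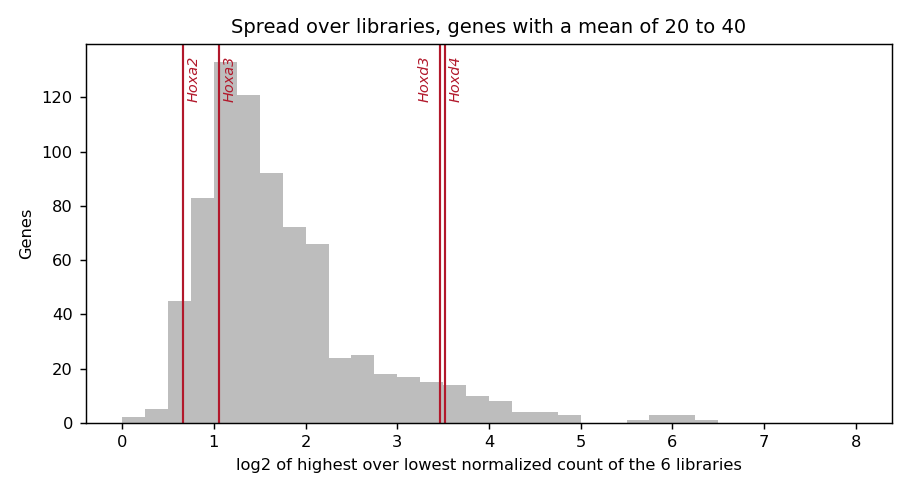
Number of genes by the log2 of the highest over the lowest normalized count of the 6 libraries, for genes with a mean of 20 to 40. The 17 genes with 0 reads in a library have no ratio and are not drawn. Red lines mark Hoxa2 (ratio 1.58), Hoxa3 (2.08), Hoxd3 (11.0) and Hoxd4 (11.5), and the last 2 lie in the upper tail.

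Some reads of these genes could belong to others. The exons of Hoxd3 share 388 bp with another annotated transcript of Hoxd4 on the same strand, and 347 bp with Hoxd3os1, a noncoding RNA on the opposite strand. Hoxd3os1 had 3, 3, 14, 0, 22 and 17 reads in libraries 1 to 6. Hoxa3 shares 503 bp with Hoxaas2 and Hoxa7 shares 579 bp with Hoxaas3, both on the opposite strand. Hoxaas2 had 18, 23, 18, 14, 8 and 17 reads and Hoxaas3 had 28, 34, 26, 32, 20 and 27. The study's methods name a default setting for featureCounts and DESeq2 together, and by default featureCounts ignores the strand. Whether the counting followed every default is not known. The libraries were stranded, and the exact counting options are not given. Whether reads of these pairs were told apart is therefore not known. The Hoxd4 transcript whose value is given shares no exon bases with that of Hoxd3. Gm28230, an annotated gene on the same strand that is not listed in the table, covers 75% of the Hoxd3 exon bases and 45.1% of those of Hoxd4.

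The genes of the other clusters and the partners of the Hox proteins were placed on the same scale. The 10 HoxB genes had a median of 4.77 per kb, with Hoxb9 the highest at 82.3 and Hoxb1 at 0. The 9 HoxC genes had a median of 9.73, with Hoxc6 the highest at 37.9. The median of the 9 anterior and central HoxA and HoxD genes, 32.1, was above both. This sets a part of the HoxA and HoxD clusters beside whole HoxB and HoxC clusters, their posterior genes included. The TALE homeodomain cofactors, which bind DNA together with Hox proteins, had means of at least 10 in 9 of 9 genes, with Pbx2 at 520 per kb. Of the 17737 genes with reads and a known length, 13018 had such a mean. This share leaves out genes with no reads or no known length, some of which are in the lists compared here. The share over all 25043 genes was not computed. Of 20 regulators known to act upstream of Hox genes, 17 had such a mean. The retinoic acid pathway receptors Rxra at 2718 and Rarg at 1803 per kb were the highest, and Cdx2 and Cdx4, which activate trunk Hox genes in the embryo, were at 0.

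The label of the cells was checked on marker lists. Of 13 fibroblast markers, 12 had a mean normalized count of at least 10, led by Vim at 150796 per kb. The other was Lum, with a mean of 1.33. Dcn and Pdgfra lay below the median gene per kb, at percentiles 45.4 and 46.6. Of the 17737 genes with reads and a known length, 13018 had a mean this high. That share again leaves out genes with no reads or no known length, some of which are in the marker lists. Such a mean was found for 2 of 6 endothelial, 2 of 6 macrophage, 2 of 6 skeletal muscle and 2 of 6 neural markers. The highest of these lists were Acta1, a muscle actin, at 3258 per kb, Kdr, a receptor of endothelial cells, at 499, Tubb3, a neuronal tubulin, at 395, and Cd68, a macrophage protein, at 209. The muscle factors Myod1 and Myf5 and the endothelial gene Emcn were at 0. Of 7 epithelial markers, 6 had such a mean, with Krt19 at 4696 and Krt18 at 769 per kb. The share of these markers in the levels of the Hox genes was not tested. Anp32e had a mean normalized count of 2190 over the libraries of both genotypes, which does not check the labels.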

How the data were processed

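RNA-seq was performed in 3 WT and 3 Anp32e null MEF libraries. The authors aligned reads to mm10 with STAR, counted them with featureCounts and compared genotypes with DESeq2, per the labels and the study's methods. The deposited table holds 42361 RefSeq transcripts. Its fold changes, standard errors, test statistics and p-values are the authors' own comparison and were not used, so no test was made. The signal used is the deposited mean normalized count, which the authors made by dividing counts by size factors and averaging over 6 libraries. It does not give depth per labelled library.

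The transcript with the highest mean stood for a gene, and of 2 with the same mean, the longer one. Exon lengths came from GENCODE M21 and differ from the RefSeq spans for Hoxa6 and Hoxa7. Of 19275 genes with reads, 92% had a length. Whole reads were solved from the printed digits of the means with Python 3.11.15 and numpy 2.4.6. On simulated counts the true reads were the 1 solution in 30 of 30 draws at a mean of 30, 15 of 15 at 50, 10 of 10 at 75 and 8 of 10 at 90. Poisson intervals are exact (95%).

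The members and gene lists were chosen with earlier results of these data known. The genes named are the members, Anp32e, the other HoxA and HoxD genes, and from each list those of highest level per kb and those at 0. RNAs whose exons overlap a member (Hoxd3os1, Hoxaas2 and Hoxaas3) were named after their values were seen. So were Lum, Dcn, Pdgfra, Amhr2 and Gdf10. Proteins were not analysed here, and some genes that this rule names are not reported here.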

Additional observations from a re-analysis of the deposited data

How the results depend on the processing

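The median percentile of the 9 genes per kb was 37.7. It was 33.9 by coding length, 36 by the transcript with the highest mean per kb, and 16.4 among the 13018 genes with a mean normalized count of at least 10. Among the latter, Hoxa2 moved from percentile 32.5 to 10.3, Hoxa3 from 30 to 7.5, Hoxd3 from 28.7 to 6.12, Hoxd4 from 30.4 to 7.89, Hoxa4 from 37.7 to 16.4, Hoxa5 from 39.4 to 18.5, Hoxa6 from 47.9 to 29.2, Hoxa7 from 50.4 to 32.5 and Hoxd8 from 60.4 to 46. Autosomal genes alone gave 37.5. Hoxd8 moved from percentile 60.4 to 82.5 by the transcript with the highest mean per kb and to 66.9 by the shorter of its 2 transcripts of the same mean, an alternative chosen after seeing the data. Its mean count was 740.6 by the second transcript and by the longest coding one. Without division by length 6 of 9 genes kept their rank, and by coding length, also added later, 7 did. With a tolerance 10 times wider, 6 of the 7 genes kept a single solution in whole reads, and Hoxa6 had 3. Leaving out each library, also added later, moved no mean of the 7 genes by more than a factor of 1.23. Leaving out 1 of 6 libraries can raise a mean only a little, so a small factor does not show that the libraries are alike. Hoxd3 and Hoxd4 differed by factors of 11.0 and 11.5 between libraries. No paired analysis was possible because the table holds no values per labelled library.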

Other observations

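The values of Hoxd3 and Hoxd4 fell into separate clusters over the 6 libraries. In libraries 1 to 6, the normalized counts were 7.07, 4.76, 45.8, 9.12, 52.4 and 42.9 for Hoxd3 and 15.9, 4.76, 54.5, 16.2, 48.1 and 41.8 for Hoxd4, with no value between 16.2 and 41.8 in either gene. Those of Hoxa4, at 33.6, 22.8, 69.1, 18.2, 65.2 and 97.9, left a gap between 33.6 and 65.2. This was not particular to these genes. Among genes with a mean of 20 to 40, the HoxC genes Hoxc4, Hoxc8 and Hoxc9, named after their values were seen, had high and low reads in the same libraries. Hoxc4 had 3, 5, 48, 1, 40 and 39 reads in libraries 1 to 6, Hoxc8 had 2, 0, 42, 6, 43 and 37, and Hoxc9 had 2, 1, 46, 0, 43 and 41. The noncoding RNA Hoxd3os1 had 3, 3, 14, 0, 22 and 17. Genes outside the Hox clusters split in the same way, such as Amhr2 with 6, 2, 45, 1, 59 and 68 reads. Others did so in reverse, such as Gdf10 with 81, 57, 0, 73, 0 and 0. The split is thus not a trait of Hox genes, and its share of the 786 genes was not counted. The libraries carry no label, so these values were set against no genotype and were not tested.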
